A study of Arabidopsis thaliana with 6 samples.

Results

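AT1G55210 and AT3G13650 are a pair of Arabidopsis thaliana genes that encode dirigent-like proteins, and they were chosen because their signals lay on opposite sides of the wild type in a mutant of HD-ZIP III genes, the class III homeodomain-leucine zipper family. They are 2 of the 13286 genes that could be named on the array, and each was read from 1 probe set, 259655_at for AT1G55210 and 256781_at for AT3G13650. A quadruple mutant, which combines the alleles phv-6 of PHV, phb-13 of PHB, cna-2 of CNA and athb8-11 of ATHB8, was compared with wild type Col er-2. The labels give er-2 for the wild type and do not say whether the mutant carries it. Per the labels' protocols, the outermost 0.5 mm of primary roots was cut by hand from untreated seedlings 4 days after germination, and a replicate pooled about 200 tips. Each genotype had 3 Affymetrix ATH1 arrays, described by the design text as biological replicates.

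Dirigent proteins are secreted proteins of plants that have no oxidizing activity of their own. Laccases and peroxidases oxidize monolignols to phenoxy radicals, and a dirigent protein steers how these radicals couple, which sets the stereochemistry of lignans such as pinoresinol. In Arabidopsis, DIR5 and DIR6 direct the formation of pinoresinol, and the dirigent domain protein ESB1 is required for the lignin of the Casparian strip in the root endodermis. The HD-ZIP III family consists of transcription factors that pattern the vascular cylinder of the root, where lignified xylem forms.

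Of the mutated genes, PHV alone could be matched to a named probe set. Its log2 signals were 4.64, 4.93 and 4.66 on the mutant arrays, against 5.49, 5.80 and 5.68 on the Col er-2 arrays, and so lower in every mutant replicate. The labels do not tell whether its probes lie on the part of the transcript that the lesion affects. Array medians lay between 5.56 and 5.59 in log2 signal, and the correlation between arrays over probe sets was 0.989 to 0.996. Wild type replicate 1 stood at the end of the first principal component, at -28.1, with mutant replicate 1 next at -11.4, so the values of both genes are given below with and without these arrays. Root tip markers were measured for 5 of the 12 genes listed, with summed linear signals of 241 to 267 in the mutant and 216 to 255 in Col er-2. Green tissue markers, 2 of 7, summed to 72.9 to 85.2 in the mutant and 77.2 to 118 in Col er-2. Markers of elongated and root hair cells, 2 of 5, summed to 42.8 to 44.2 in the mutant and 42.3 to 52.3 in Col er-2. A sum can hide single markers: BBM differed by 0.42 between mutant and wild type and JKD, the 1 root tip marker lower in the mutant, by -0.14. The genotypes did not overlap for BBM, nor for RCA (-0.33) and EXPA7 (-0.17), both lower in the mutant. They overlapped for the other markers, and 13.1% of all probe sets had no overlap. AGL42, CLE40, EXPA7 and EXPA18 were under the array median on all 6 arrays. A linear RMA signal is never 0, so presence of a marker is not read from it. The part of tissue makeup in the results was not tested.

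AT1G55210 gave log2 RMA signals of 9.48, 9.51 and 9.59 in mutant replicates 1, 2 and 3, against 8.80, 8.79 and 8.71 in Col er-2 replicates 1, 2 and 3. All 3 mutant arrays were higher than all 3 wild type arrays, and the arrays of each genotype lay close together. The signal averaged 9.53 ± 0.06 in the mutant and 8.77 ± 0.05 in Col er-2 (SD, n = 3 each). The log2 difference, mutant minus wild type, was 0.76 with a standard error of 0.08 and a 95% confidence interval of 0.58 to 0.94, a 1.70-fold higher signal. The interval comes from limma's fit across 22746 probe sets. Because the pair was picked on this very contrast, the difference is given as a description and carries no p-value.

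AT3G13650 showed the opposite order. Its log2 signals were 5.29, 5.08 and 5.11 in mutant replicates 1, 2 and 3, against 6.10, 5.67 and 5.90 in Col er-2 replicates 1, 2 and 3. Again the groups did not overlap, but the wild type arrays were spread over 0.42 log2 units and the mutant arrays over 0.21. The means were 5.16 ± 0.11 in the mutant and 5.89 ± 0.21 in Col er-2 (SD, n = 3 each). The log2 difference was -0.73, with a standard error of 0.12 and a 95% confidence interval of -1.01 to -0.45, which is a 1.66-fold lower RMA signal. It too was used in the choice and is given without a test.

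Across all probe sets, 13.1% had genotypes that did not overlap, 7.55% with the mutant higher and 5.57% with it lower, and nothing is read from the separation of the pair, which was chosen for it. The distance between the groups differed for these genes. For AT1G55210 the lowest mutant array exceeded the highest wild type array by 0.68. For AT3G13650 the highest mutant array lay 0.38 under the lowest wild type array. Over the 9 possible pairs of a mutant and a wild type array, the difference ran from 0.68 to 0.88 for AT1G55210 and from -1.01 to -0.38 for AT3G13650.

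**Figure D1:**
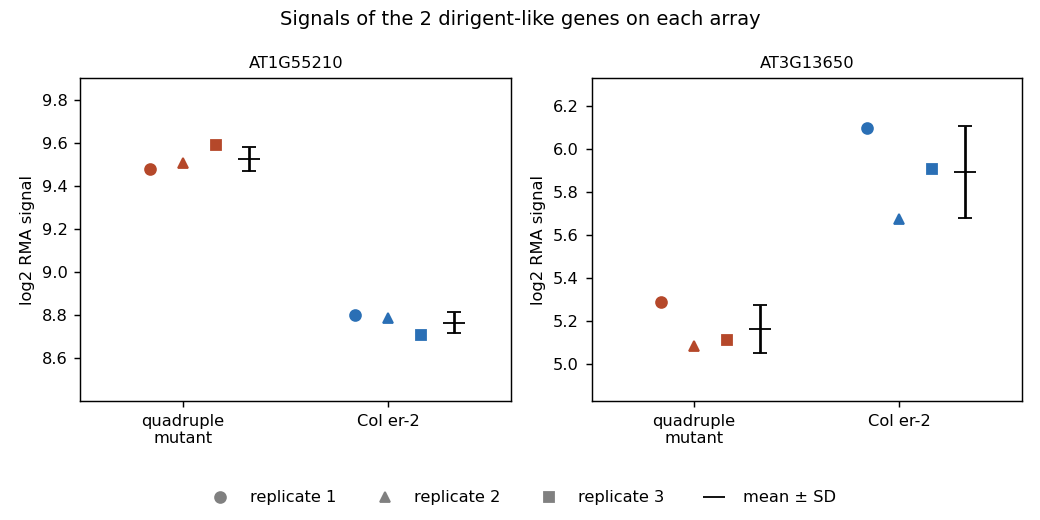
Log2 RMA signal (vertical axis, equal spans in both panels) of AT1G55210 and AT3G13650 on the 3 quadruple mutant and 3 Col er-2 arrays; marker shapes give the replicate number and black bars the mean ± SD. AT1G55210 lies between 9.48 and 9.59 in the mutant and 8.71 and 8.80 in Col er-2, and AT3G13650 between 5.08 and 5.29 in the mutant and 5.67 and 6.10 in Col er-2.

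The genes differed in how close their replicates lay and in signal level. The residual SD of AT1G55210 within genotypes was 0.05, which put it at percentile 6.90 of all probe sets, where a low percentile means closer replicates. That of AT3G13650 was 0.17, at percentile 73.5. AT1G55210 was above the array median on all 6 arrays, by 3.14 to 4.00 log2 units. AT3G13650 was below the array median on the mutant arrays, by -0.51 to -0.30, and above it on the wild type arrays, by 0.11 to 0.54. RMA compresses differences of dim probe sets and the table holds no detection calls, so the mutant signal of AT3G13650 was not read as absence of its transcript and its fold is that of the signal. In whole root tips, fewer cells that express a gene and less RNA per cell cannot be told apart.

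Deviations from the genotype means did not run together in the pair. AT3G13650 was highest on replicate 1 of both genotypes, at 0.13 above the mutant mean and 0.21 above the wild type mean, and lowest on replicate 2, at -0.08 in the mutant and -0.22 in Col er-2. AT1G55210 deviated by -0.06 to 0.06, with mutant replicate 3 highest in its group and wild type replicate 3 lowest in its own. Wild type replicate 1, which stood apart over all probe sets, was thus also the highest array of AT3G13650.

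Leaving out each array in turn kept both directions, as it must where the groups do not overlap. The difference of AT1G55210 ran from 0.73, without mutant replicate 3, to 0.78, without mutant replicate 1. That of AT3G13650 was weakest, at -0.63, without wild type replicate 1 and strongest, at -0.84, without wild type replicate 2. With replicate 1 of both genotypes left out, a setting added after the data were seen, the differences were 0.80 for AT1G55210 and -0.69 for AT3G13650. With 1 of 3 arrays left out, a shift under the residual SD between replicates follows from arithmetic. These values are thus a description.

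**Figure D2:**
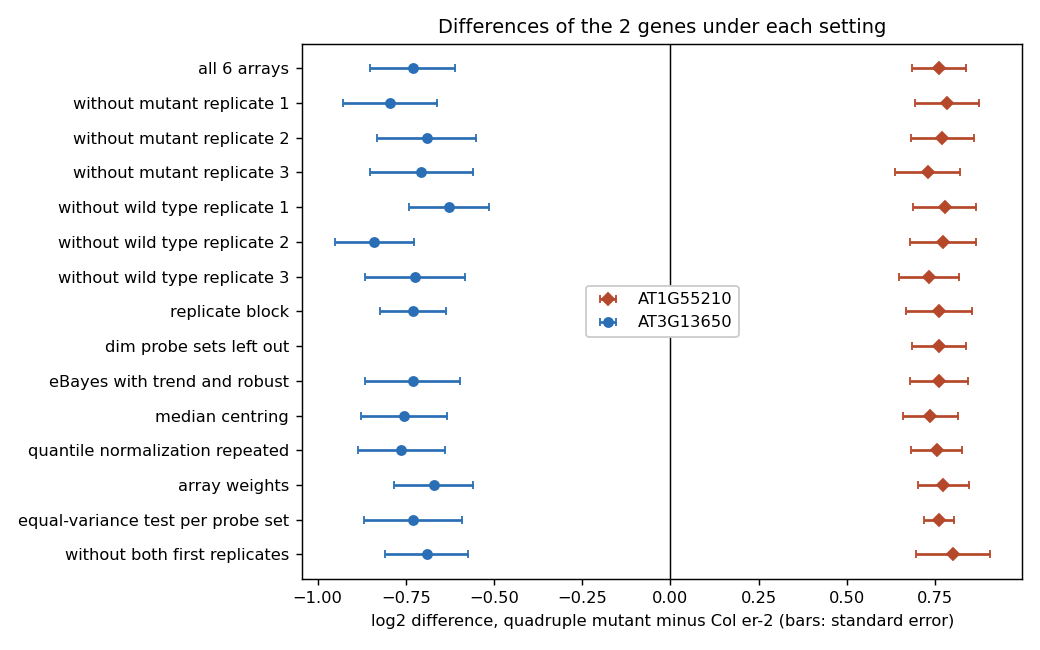
Log2 difference, quadruple mutant minus Col er-2 (horizontal axis, bars show the standard error), of AT1G55210 (diamonds) and AT3G13650 (circles) with all 6 arrays and under each alternative setting. AT1G55210 stays between 0.73 and 0.80 and AT3G13650 between -0.84 and -0.63; AT3G13650 has no point where dim probe sets were left out, since its mean was under that bound.

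A factor that scales a whole array cancels when the log2 signal of AT3G13650 is subtracted from that of AT1G55210 on the same array. This quantity was 4.19, 4.42 and 4.48 in the mutant replicates, against 2.70, 3.11 and 2.80 in the Col er-2 replicates. The genotype means differed by 1.49. That the genotypes are apart here follows from the choice of genes with opposite differences, and the quantity says nothing of relative transcript levels. With 1 array left out the value ran from 1.41 to 1.61. Repeating the quantile normalization gave 1.52, and the separate differences were then 0.75 for AT1G55210 and -0.76 for AT3G13650.

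The other dirigent family genes were read as a background for the pair. Of 25 family loci listed, 15 could be read from a probe set that names 1 gene, which leaves 13 beside the chosen pair. The other 10 loci were not analysed here, among them DIR5, DIR6 and ESB1, and 3 of the 10 share a probe set with another gene. The list was written from general knowledge of the family, and the gene table names only 4 of the 25 loci as dirigent proteins or ESB1, so the other loci are given by locus with no role. None of the 15 probe sets carries the suffix that marks a set shared between transcripts, but cross-hybridization within the family was not tested.

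Of the 13 other family loci, 0 passed the threshold of an adjusted p under 0.05 (limma, Benjamini-Hochberg over all probe sets), where 0.0264% of all probe sets (6 of 22746) passed. That total itself moved with the arrays used, to 1 with any mutant replicate left out and 3 without wild type replicate 2. At an unadjusted p under 0.05 there was 1 of 13, against 7.47% of all probe sets, and an equal-variance test per probe set found 0 of 13 after adjustment and 2 of 13 before it. Mean signals were higher in the mutant for 6 and lower for 7. The median log2 difference over the 13 was -0.07, beside 0.0076 over all probe sets, and the differences ran from -0.26 to 0.57. The genotypes did not overlap in 2 of the 13, or 15.4%, both lower in the mutant, where the share over all probe sets was 13.1%.

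AT4G11190 had the largest difference among these 13 loci. Its log2 signals were 6.88, 8.17 and 8.13 in the mutant replicates, against 7.00, 7.33 and 7.14 in the Col er-2 replicates. Mutant replicates 2 and 3 lay above every wild type array, while mutant replicate 1 lay below them all. The difference of 0.57 (95% confidence interval -0.15 to 1.28) did not pass (limma, Benjamini-Hochberg adjusted p = 0.761). It became 0.99 without mutant replicate 1 (limma adjusted p = 0.108), and 0.34 and 0.36 without mutant replicates 2 and 3, and the adjusted p stayed above the threshold in all 14 alternatives.

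AT4G11210, which AT4G11200 separates from AT4G11190 in the annotation of chromosome 4, followed the replicate number more than the genotype. The log2 signals were 6.61, 6.07 and 5.97 in the mutant replicates, against 6.54, 5.87 and 5.49 in the wild type replicates. Replicate 1 was highest in both genotypes, as for AT3G13650, and the genotypes overlapped. The log2 difference was 0.26 (interval -0.36 to 0.87, limma adjusted p = 0.888), and it ran from 0.02 without wild type replicate 3 to 0.54 without wild type replicate 1, with 0.06 without mutant replicate 1.

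AT2G21110 was the 1 family locus with an unadjusted p under 0.05. Its log2 signals of 4.19, 4.17 and 4.03 in the mutant replicates lay under the 4.37, 4.37 and 4.43 of the Col er-2 replicates. The difference of -0.26 (interval -0.44 to -0.07) had a limma adjusted p of 0.510, and all 6 values were below the array medians. AT3G58090 was the other locus without overlap, with 4.57 to 4.60 in the mutant and 4.65 to 4.71 in Col er-2, a difference of -0.09 with an interval of -0.26 to 0.08.

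**Figure D3:**
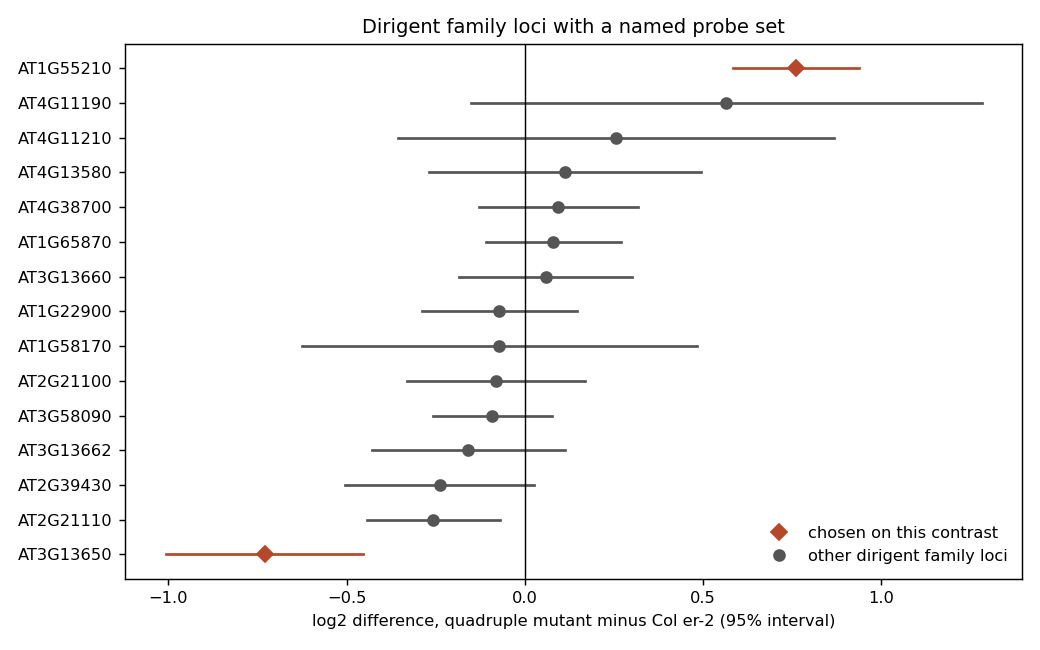
Log2 difference, quadruple mutant minus Col er-2, with its 95% confidence interval, for the 15 dirigent family loci with a named probe set; diamonds are AT1G55210 (0.76) and AT3G13650 (-0.73), chosen on this contrast, and circles the other 13. Intervals of 12 of those 13 include 0, that of AT2G21110 being the exception.

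The remaining family loci had low signals. AT1G58170 ranged from 4.85 to 5.50 in the mutant and 4.73 to 5.57 in Col er-2, with replicate 1 lowest in both genotypes and a difference of -0.07. AT2G39430 differed by -0.24 (limma adjusted p = 0.726), or by -0.14 without mutant replicate 1, and AT4G13580 by 0.11 (limma adjusted p = 0.927). AT4G38700 differed by 0.09, AT1G65870 by 0.08, AT2G21100 by -0.08 and AT1G22900 by -0.07. In total 10 of the 13 loci were under the array median on all 6 arrays, and the size of a change at such signals is understated by RMA.

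AT3G13660 and AT3G13662, both family loci, directly follow AT3G13650 in the chromosome 3 annotation. AT3G13660 had log2 signals of 4.33, 4.62 and 4.27 in the mutant replicates, against 4.31, 4.36 and 4.38 in the Col er-2 replicates, and differed by 0.06 (interval -0.18 to 0.30). AT3G13662 had 4.33, 4.61 and 4.52 in the mutant replicates, against 4.58, 4.50 and 4.85 in the wild type replicates, and differed by -0.16 (interval -0.43 to 0.11), which became -0.06 when wild type replicate 3 was left out and -0.08 when mutant replicate 1 was. The genotypes overlapped at both loci, the limma adjusted p were 0.942 for AT3G13660 and 0.831 for AT3G13662, and both probe sets were below the array medians throughout.

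**Figure D4:**
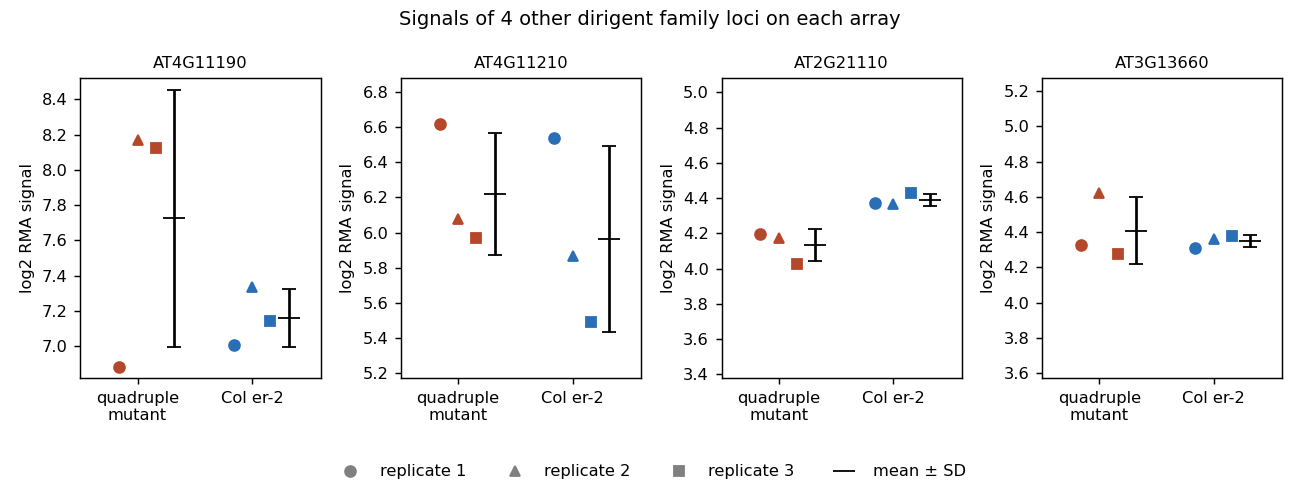
Log2 RMA signal (vertical axis, equal spans in all panels) of AT4G11190, AT4G11210, AT2G21110 and AT3G13660 on the 3 quadruple mutant and 3 Col er-2 arrays; marker shapes give the replicate number and black bars the mean ± SD. Mutant replicate 1 of AT4G11190, at 6.88, lies apart from 8.17 and 8.13, and both first replicates of AT4G11210 are the highest of their genotype.

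Few of the genes that supply or use the phenoxy radicals could be named. The naming used gave no gene for 8730 of the 22746 probe sets, so an unnamed gene need not be missing from the array. Monolignol synthesis was represented by 2 of 19 listed genes, and 0 of 2 passed the limma threshold or had an unadjusted p under 0.05. Of all probe sets, 0.0264% and 7.47% did, so a count over 2 genes says little about the pathway. HCT, the hydroxycinnamoyl transferase of the pathway, had log2 signals of 7.79, 8.33 and 8.15 in the mutant, against 7.86, 8.37 and 8.40 in the wild type. Replicate 1 was lowest in both genotypes, the groups overlapped, and the difference was -0.12 (interval -0.54 to 0.29). CCR2, a cinnamoyl-CoA reductase, differed by -0.13, UGT71C1, a glucosyltransferase listed for lignans, by -0.16, and LAC16, the 1 of 17 laccases named, by 0.04. UGT71C1 was the 1 of 3 lignan genes named, and neither it nor LAC16 had an unadjusted p under 0.05, against 7.47% of all probe sets. Single arrays moved these small differences, that of UGT71C1 to -0.04 without wild type replicate 1 and that of CCR2 to -0.07 without replicate 1 of either genotype.

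Of the Casparian strip list, 6 of 17 genes were named. Its genes were listed for their role in the strip, and the endodermal content of the tips is not read from them. All 6 had lower mean signals in the mutant, as did 10785 of 22746 probe sets. Apart from that of AT4G11290, the differences were only -0.11 to -0.02. Those of AT1G44970, AT5G66390, GSO1 and AT1G61590 turned sign in at least 1 alternative. Of the 6 genes, 0 passed the limma threshold and 1 had an unadjusted p under 0.05, where 0.0264% and 7.47% of all probe sets did. The equal-variance test found 0 of 6 with and without adjustment. The median log2 difference was -0.04, beside 0.0076 over all probe sets. AT4G11290, which was listed as a class III peroxidase although the gene table carries no such name, had log2 signals of 8.03, 6.50 and 6.93 in the mutant replicates, against 8.77, 8.23 and 8.10 in the Col er-2 replicates. Its genotypes did not overlap, with mutant replicate 1 close to the wild type arrays. The difference was -1.21 (interval -2.04 to -0.39, limma adjusted p = 0.464).

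The other 5 Casparian strip genes differed by -0.11 to -0.02 at signals under the array medians, with AT1G44970 at -0.11, AT4G34600 at -0.04 and AT1G61590 at -0.03. Summed linear signals of the 6 genes were 190 to 359 in the mutant and 379 to 544 in Col er-2. This separation comes from AT4G11290, the 1 gene among them above the array medians, and is not read as a fall of the list. These values stand beside the lower signal of AT3G13650, and their part in it was not tested.

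The genes nearest to each of the pair along the chromosome were read because a crossing scheme can carry linked sequence along with an allele, and this reading was added after the data were seen. AT1G55210 lies on chromosome 1, 425 annotated loci from CNA and 2641 from PHV. AT3G13650 lies on chromosome 3, which carries none of the mutated loci. Of the 10 nearest named genes around AT1G55210, up to 12 loci away, 6 had higher and 4 lower mean signals in the mutant, from -0.34 for AT1G55240 to 0.30 for AT1G55265. Without wild type replicate 1 the difference of AT1G55240 was -0.20. None of the 10 passed the limma threshold, against 0.0264% of all probe sets, and 2 had an unadjusted p under 0.05, against 7.47%. The genotypes did not overlap in 4 of the 10, with the mutant higher in 3 and lower in 1, where the share over all probe sets was 13.1%. The adjoining named genes, AT1G55200 and AT1G55220, differed by 0.03 and -0.02.

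Between CNA and AT1G55210 there are 424 annotated loci, of which 153 were named on the array. Their median log2 difference was 0.02, beside 0.0076 over all probe sets, and the largest in either direction were -0.40 and 0.46. In this stretch 0 of 153 passed the limma threshold, against 0.0264% of all probe sets. At an unadjusted p under 0.05 there were 5, or 3.27%, against 7.47% of all probe sets. The genotypes did not overlap in 18 with the mutant higher and 7 with it lower, or 11.8% and 4.58%, where the shares over all probe sets were 7.55% and 5.57%.

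Around AT3G13650, 0 of the 10 nearest named genes passed the limma threshold and 1 had an unadjusted p under 0.05. Of all probe sets, 0.0264% and 7.47% did. The genotypes did not overlap in 2 of the 10, both with the mutant higher. Over all probe sets the share was 13.1%, with 7.55% higher in the mutant. Mean signals were higher in the mutant for 7 and lower for 3. AT3G13610 had the largest of these differences, -0.52 with a standard error of 0.29, but its genotypes overlapped and the difference was -0.14 without wild type replicate 1. AT3G13650 is on a chromosome with none of the mutated loci, and whether AT1G55210 lies in sequence linked to an allele was not tested.

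**Figure D5:**
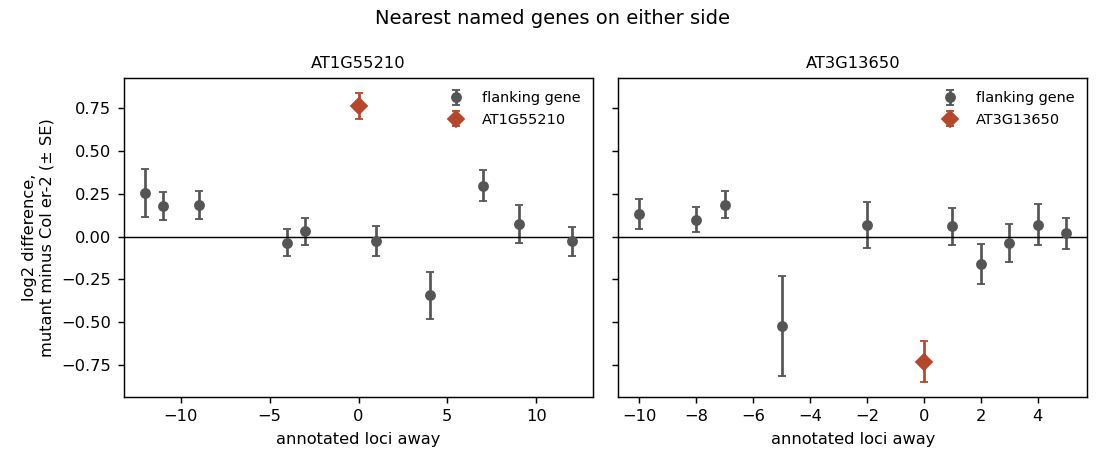
Log2 difference, quadruple mutant minus Col er-2 (± standard error), of the 5 nearest named genes on each side of AT1G55210 and AT3G13650 (grey circles) against the number of annotated loci away; the diamond at 0 is the chosen gene. The flanking genes run from -0.34 to 0.30 around AT1G55210 and from -0.52 to 0.19 around AT3G13650.

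Likeness of pattern was measured as Pearson's r over the 6 arrays, among 2182 named genes with an SD over arrays of at least 0.2. Such r values mostly carry the genotype difference by which the pair was chosen, and many genes reach high values with so few arrays, so they are given as a description. For AT1G55210, 57 genes had an r over 0.9 and 31 an r under -0.9. Those most like it were AT2G19385 at 0.992, AT3G48970 at 0.981, AT5G42765 at 0.975, AT5G50010 at 0.973 and AT5G23910 at 0.971. Their log2 differences ran from 0.36 for AT2G19385 to 1.14 for AT3G48970. The most opposite were EXPB1, a beta-expansin of wall loosening, at -0.974, AT3G59850 at -0.966 and CDI at -0.965, with log2 differences of -0.81, -0.65 and -0.36.

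AT3G13650 likewise had 57 genes with an r over 0.9, and 64 with an r under -0.9. Closest were AT5G42860 at 0.992, AT1G04040, a gene of the HAD acid phosphatases, at 0.989, AT1G76240 at 0.981, AT3G01720 at 0.980 and AT3G15760 at 0.978. The log2 signal of AT1G04040 averaged 10.60 ± 0.25 in the mutant and 11.54 ± 0.29 in Col er-2 (SD, n = 3 each), a difference of -0.94. Most opposite were AT5G06190 at -0.990, AT5G41190 at -0.983 and AT4G17240 at -0.976. With any 1 array left out, the r of the 16 genes named here and above kept its sign and stayed at 0.953 or more in size.

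Deviations from the genotype means leave the chosen contrast out. On these, 55 of 2182 genes had an r over 0.9 with AT3G13650 and 5 with AT1G55210. So few arrays let unrelated genes reach such values too, and the counts are only a description. The highest for AT3G13650 were AT3G43960 at 0.994, AT4G15545 at 0.992, AT4G14230 at 0.987, AT5G62460 at 0.977 and AT5G58900 at 0.974. Of these, AT4G14230 and AT5G62460 had genotype differences of -0.09 and -0.07. For AT1G55210 the highest were EEL, a bZIP transcription factor, at 0.940, AT5G10750 at 0.937, UGT76E2 at 0.928, AT5G20110 at 0.920 and AT1G48560 at 0.919.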

How the data were processed

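The deposited values, 1 log2 figure for each probe set on each array, are taken to be RMA signals of the authors, since the submitters' processing notes name RMA beside Affymetrix Expression Console and limma, and the range of the values fits. No version is given there. Of 22810 probe sets, 64 controls were left out. For the other 22746, mutant minus wild type was fitted in R 4.3.3 by limma 3.58.1 (lmFit, eBayes), with Benjamini-Hochberg adjustment over all of them and a threshold of 0.05. The files name no genome build, so no coordinates are given, and the TAIR10.1 table served for names and gene order. Probe sets with 1 gene ID, 13513, gave 13286 genes, each by its brightest probe set. Named were the pair, all other family loci, list members called or, failing that, up to 4 by smallest p, and genes of like pattern. Flanking genes, and list genes beyond that rule, were added after values were seen. The members and lists were chosen with earlier results of these data known. In simulated data over 22746 probe sets, 100 changes of log2 1 and 100 of log2 0.5 were put in. Of these, 83.1% and 30.3% were recovered. The adjustment is stricter where fewer probe sets change, and the real comparison called only 6, so these shares can be too high for it. The simulated noise was independent between arrays and probe sets, so these shares need not hold where probe sets vary together. Precision is limited by having 3 arrays per genotype, with a median standard error of 0.10 for a difference. Promoter and protein sequences were not used here. Alternatives were each array left out, a replicate block, a dim filter, other variances, scalings and weights.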

Additional observations from a re-analysis of the deposited data

How the results depend on the processing

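The difference of AT1G55210 kept its direction in all 14 alternatives (0.73 to 0.80). That of AT3G13650 did so in the 13 that held it (-0.84 to -0.63), since the dim filter left AT3G13650 out. Because neither gene's groups overlap, any choice or weighting of arrays must keep these directions. Against 6 probe sets called, the replicate block called 109, trend with robust 27, array weights 22, repeated quantile normalization 11 and the equal-variance test 1, and leaving out 1 array 1 to 8; the cause was not tested. With the replicate block, 1 Casparian strip gene was called, AT4G11290 (limma adjusted p = 0.0283), where 0 were called without it, and no other list count changed. The replicate numbers do not establish pairs, since the deviations of replicates 1, 2 and 3 correlated between genotypes at 0.504, 0.07 and 0.176. Dirigent family, monolignol, lignan and laccase genes gave 0 calls in every alternative that held them, but the dim filter held only 5 of the 23 list genes, with 2 of the 13 other family loci, 1 Casparian strip gene and no laccase. Over 304 recomputed values of 23 list genes, 284 kept direction and side of the threshold, 1 was newly past it and 19 turned sign, none of them called. With 1 array or both first replicates left out, those that turned ranged from -0.12 to 0.0055 and 0.015 (AT1G22900), -0.021 to 0.27 and 0.29 (AT4G13580), -0.34 to 0.098 (AT1G58170), -0.049 to 0.13 (AT3G13660), -0.30 to 0.027 (HCT, AT5G48930), -0.021 to 0.077 and 0.089 (LAC16, AT5G58910), -0.15 to 0.088 and 0.11 (AT5G66390), -0.060 to 0.016 (GSO1, AT4G20140) and -0.086 to 0.0033 and 0.016 (AT1G61590), where a second value after "and" leaves out both first replicates. Array weights gave 0.051 for AT1G44970 and 0.090 for AT5G66390; the cause was not tested. Arrays have no depth, but low signal limits 11 of the 13 other family loci, whose mean lay under the median of all probe sets.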
